A study of Mus musculus with 12 samples.

Results

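The enzymes that add acetyl and methyl groups to histones, and those that take them off, were examined as one group of 40 mouse genes in maps of 5-hydroxymethylcytosine (5-hmC), the oxidised form of methylated cytosine. The group was taken by gene name: 9 deacetylases, 7 acetyltransferases, 11 demethylases and 13 methyltransferases. All 40 are protein-coding genes, of 21900 in the reference table. A region belonged to a gene where the deposited tables place it in that gene's body or promoter, which gave 292 regions of 70430 listed in all. The 40 genes were chosen by function and not by any measured value, but with earlier results of these data known.

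Dorsal root ganglia of lumbar levels L4, L5 and L6 were studied, which hold the cell bodies of sensory neurons, satellite glia, Schwann cells and other cells. Ganglia were taken 24 h after a lesion of the sciatic nerve, the peripheral branch of these neurons (PL), or 24 h after a lesion of the dorsal columns, their central branch in the spinal cord (DCL). Control ganglia were the contralateral, uninjured ones of the PL animals. They share animals with PL and not with DCL, and those animals had a lesion on the other side. Each group had 3 libraries of DNA enriched for 5-hmC, each from a pool of 3 animals, and 1 un-enriched input a group was not used here. The sources used here do not give strain, sex or age of the mice.

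Acetylation of histone tails by acetyltransferases loosens chromatin and marks active promoters and enhancers, and deacetylases reverse it. Methylation of histone lysines marks active or silent chromatin according to the residue, with a methyltransferase and a demethylase for most residues. In sensory neurons, several of these enzymes are known from work on nerve injury: Kat2b (PCAF) promotes axon regrowth after peripheral injury, and Hdac5 leaves the nucleus of injured neurons. 5-hmC is made from 5-methylcytosine by Tet enzymes and is abundant over the bodies of genes in neurons.

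Differential regions were deposited for PL against control, DCL against control and PL against DCL, with the normalised reads that each library had in a region. A region is named here as higher or lower by the mean of the first group against that of the second, and the log2 ratio is that of the 2 means after adding 1 to each. Libraries are called apart where all 3 values of one group lie beyond all 3 of the other. With 3 libraries against 3, the exact two-sided permutation test cannot give a p below 0.1, which is the p of each of the 164 member regions with libraries apart. The adjusted p-values given are the authors' own, and no source used here names the test behind them. The tables hold no library totals, so depth is known only as the value of 1 read. In the comparison of PL with control, 1 read was worth 0.907, 1.5 and 1.77 in the PL libraries and 1.05, 0.668 and 0.576 in the controls. For DCL against control it was 3.14, 1.49 and 0.658 in the DCL libraries, in the order of listing, and 0.974, 0.62 and 0.534 in the controls. Between the lesions it was 0.62, 1.03 and 1.23 in the PL libraries and 2.34, 1.11 and 0.488 in the DCL libraries. The first-listed DCL library therefore had few reads with a large scaling, and results that rest on it are given with and without it. Each table has its own normalisation, and levels are compared only within a table.

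Of the 40 genes, 34 carried at least 1 region, 18 of them in all 3 tables, 12 in 2 tables and 4 in 1 table. No listed region fell in Hdac3, Hdac5, Hdac10, Kat2a, Kdm3a or Ehmt2, so the class IIa deacetylase known for its response to axon injury was not among the genes with a listed difference. The regions were unevenly spread. Prdm16, a transcriptional regulator with a methyltransferase-related PR domain, held 31 of them (10.6%), and the 5 genes with most regions, Prdm16, Kat6b, Hdac4, Kmt2c and Ehmt1, together held 33.2%. Long genes held more regions: over the 40 genes, Spearman's rho of gene length and number of regions was 0.853, as a description, and the median member was longer than 84.1% of protein-coding genes. Per 100 kb of gene, the short genes Kat5 (40.2 regions) and Hdac1 (30.1) stood highest and Hdac9 (1.15), the longest, lowest of the 34 genes with a region. All these counts take a stretch once for each table that lists it, and they include promoter regions outside the gene's span. The 2 Kat5 regions are 1 promoter stretch listed in 2 tables, and stretches of Hdac1 are also listed in 2 tables. The densities are therefore not numbers of separate stretches in a gene.

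**Figure D1:**
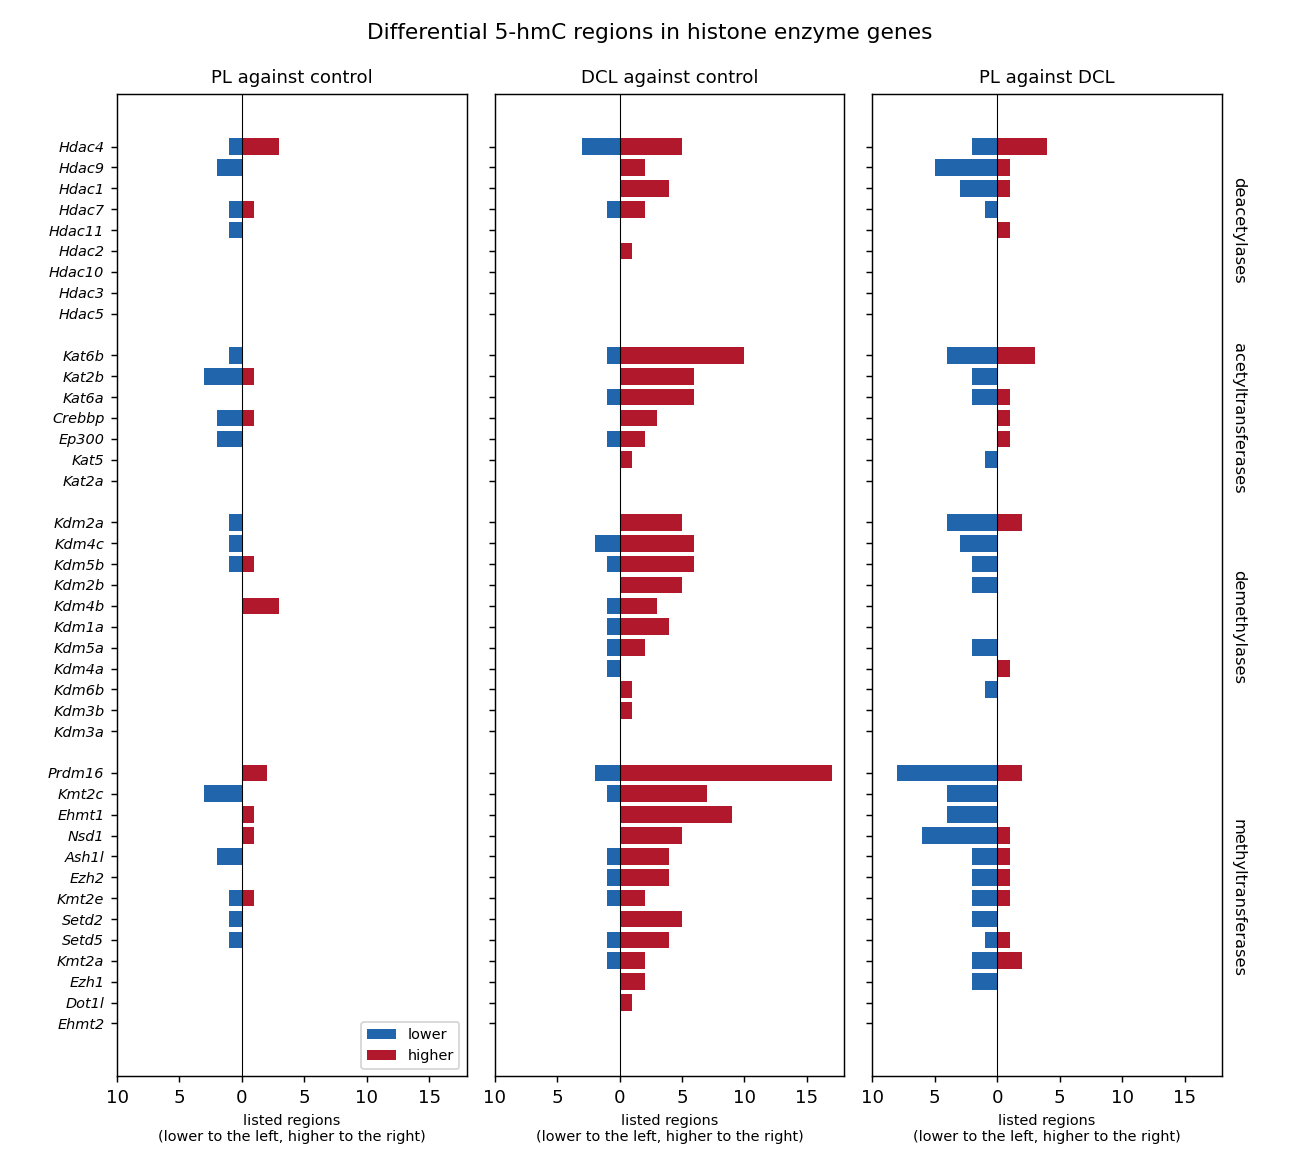
Number of listed 5-hmC regions in each of the 40 genes, ordered by enzyme class and then by total, with regions listed as higher to the right of 0 and as lower to the left. Regions after PL are few and of both directions, those of DCL against control are mostly higher (137 of 159), and those of PL against DCL mostly lower (69 of 94); 6 genes have no bar.

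After PL, 20 of the 40 genes (50%) carried a region, against 20.2% of all protein-coding genes and 36.4% of those within the middle range of the members' lengths. That range runs from the lower to the upper quartile of the 40 lengths. The longest and shortest members lie outside it, so the shares are not matched for length. The 39 regions were 15 higher and 24 lower. The lower share was 61.5%, against 49.6% of all listed regions, and no test of that difference was made. In 10 genes all regions were lower, in 4 all were higher and in 6 there were both. Libraries were apart in 13 of 15 higher regions, where 95.6% of all higher regions have them apart, and in 24 of 24 lower ones, where 6066 of 6067 do. The median log2 ratio was 1.19 in higher regions (1.19 over all listed) and −1.39 in lower ones (−1.51 over all listed). Because the ganglion is a mixture, fewer cells of a type with the mark and less 5-hmC per cell cannot be told apart.

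Deacetylases had 4 higher and 5 lower regions after PL, in 4 of 9 genes. Hdac9, a class IIa deacetylase that represses Mef2 targets, carried 5.44, 4.5 and 8.87 normalised reads after PL, against 22.1, 18 and 24.2 in control (chr12:34850521-34850800, gene body). All 3 PL libraries lay under all controls, with a log2 ratio of −1.63, and the other Hdac9 region was lower too. Hdac7, another class IIa deacetylase, carried 9.07, 4.5 and 5.32 normalised reads after PL, against 23.1, 24.1 and 18.4 in control in a promoter region by the table's annotation, 1848 bp from an inner start of the gene, which lies 12.7 kb inside its longer listing (chr15:97660241-97660460, log2 ratio −1.65). It was the only promoter region of the 40 genes in this table (1 of 39 regions, where 11.9% of all gene-linked regions are in promoters), and its groups did not overlap. Hdac4, a class IIa deacetylase of neurons and muscle, carried 23.6, 22.5 and 16 normalised reads after PL, against 5.26, 10.02 and 8.07 in control (chr1:94001361-94001600, gene body, log2 ratio 1.30). Here every PL library was above every control, and Hdac4 had 3 higher regions and 1 lower one in all. The adjusted p-values in the authors' deposited table were 0.00274 for Hdac9, 0.00548 for the Hdac7 promoter and 0.00597 for Hdac4. The single region of Hdac11 was lower.

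Acetyltransferases had 2 higher and 8 lower regions, in 4 of 7 genes. Ep300, the coactivator p300, carried 9.97, 9.0 and 16 normalised reads after PL, against 28.4, 26.7 and 30.6 in control (chr15:81422241-81422500). A second Ep300 region close by carried 2.72, 3.0 and 8.87 normalised reads after PL, against 16.8, 12.7 and 17.9 in control (chr15:81424461-81424660). Both lay in the first part of the gene body, were lower in each PL library than in any control and had log2 ratios of −1.22 and −1.52. Crebbp, the paralogue of Ep300, had 1 higher and 2 lower regions, the higher one at 29.9, 34.5 and 37.3 normalised reads after PL, against 11.6, 16.7 and 15.6 in control (chr16:4196221-4196560, log2 ratio 1.16). Kat2b, the acetyltransferase PCAF, carried 9.97, 9.0 and 3.55 normalised reads after PL, against 19.99, 22.7 and 25.9 in control (chr17:53730681-53730900, log2 ratio −1.49). No PL library reached a control value in it, and Kat2b had 2 further lower regions and 1 higher one in its gene body. Adjusted p-values of 0.00607 for Kat2b, 0.00662 and 0.0071 for Ep300 and 0.00696 for Crebbp stand in the authors' deposited table.

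Demethylases had 4 higher and 3 lower regions, in 4 of 11 genes, and none was among the 12 with the smallest deposited adjusted p. Kdm4b, which demethylates histone H3, had 3 regions, all higher, with means between 15.2 and 27.6 after PL and between 3.57 and 11.5 in control. Kdm5b, which removes the methyl mark of active promoters, had 1 higher region at 38.1 ± 14.8 after PL and 16.1 ± 4.86 in control and 1 lower one (mean ± SD, n = 3, here and below). The single regions of Kdm2a and Kdm4c were lower, that of Kdm4c at 8.86 ± 6.14 after PL and 23.4 ± 3.3 in control.

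Methyltransferases had 5 higher and 8 lower regions, in 8 of 13 genes. Ash1l, a methyltransferase that opposes Polycomb silencing, carried 8.16, 9.0 and 1.77 normalised reads after PL, against 28.4, 25.4 and 22.5 in control (chr3:88858081-88858340, gene body). The third-listed PL library held 1 read there and the other two 9 and 6, all under the controls, and the log2 ratio of −1.85 was the largest fall among the 12 regions. Ehmt1, a partner of Ehmt2 in writing a silencing mark, carried 11.8, 19.5 and 26.6 normalised reads after PL, against 8.42, 4.01 and 5.19 in control (chr2:24700701-24700960, log2 ratio 1.56). It was the one region of Ehmt1 in this table, and the lowest PL library exceeded the highest control. Setd2, which methylates histones over transcribed gene bodies, carried 12.7, 4.5 and 14.2 normalised reads after PL, against 30.5, 29.4 and 24.8 in control (chr9:110446981-110447180, log2 ratio −1.35), with all PL libraries lower. Prdm16 had 2 regions, both higher. One carried 63.5, 64.5 and 44.4 normalised reads after PL, against 30.5, 28.7 and 36.3 in control (chr4:153839341-153839600). The other, near the far end of the gene, carried 52.6, 79.5 and 81.6 normalised reads after PL, against 36.8, 35.4 and 46.1 in control (chr4:153708921-153709160). These held the most reads of the 12 regions and changed least, with log2 ratios of 0.83 and 0.84, and neither pair of groups overlapped. All 3 regions of Kmt2c, a methyltransferase of enhancers, were lower, with means between 5.38 and 11.6 after PL and between 14.7 and 28.9 in control. The authors' deposited table gives an adjusted p of 0.00144 for Ash1l, 0.00344 for Ehmt1, 0.00625 and 0.00633 for Prdm16 and 0.00745 for Setd2.

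Across all 39 regions, those of the authors' deposited table with an adjusted p under 0.01 were 10 of the 15 higher and 10 of the 24 lower ones, against 47.1% and 51.8% of all listed regions. Nsd1 held the 1 region at 0.05 or more (0.0547), a higher one. Leaving out any 1 library kept at least a 1.5-fold difference in all 39, as it did in at least 97.6% of all higher and of all lower regions of the table.

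**Figure D2:**
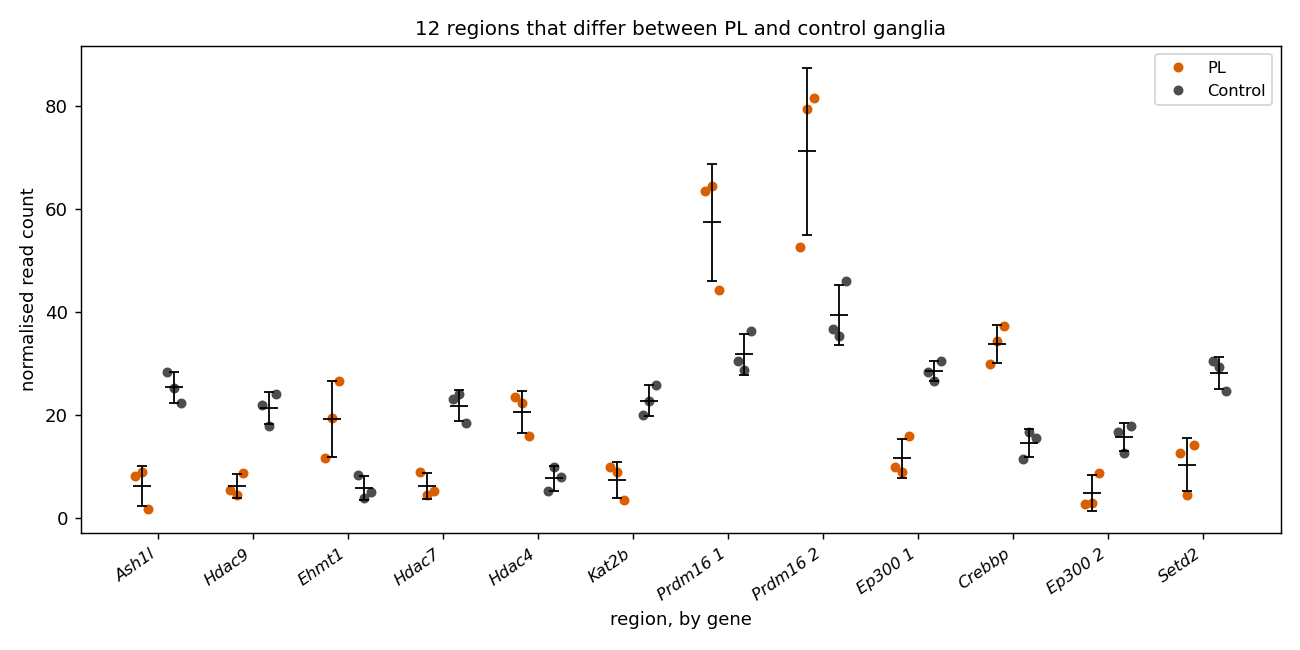
Normalised read count in each library (points), with mean and SD (bars), for the 12 regions of histone enzyme genes with libraries apart and the smallest deposited adjusted p, PL left of control; a number tells regions of one gene apart. The groups do not overlap in any of the 12, 5 of which are higher after PL (Ehmt1, Hdac4, both Prdm16 regions and Crebbp).

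After DCL, 33 of the 40 genes (82.5%) carried a region, against 38.3% of all protein-coding genes and 64.2% of those within the members' middle range of lengths. Of the 159 regions 137 were higher (86.2%, against 82.9% of all listed regions) and 22 lower. In 15 genes all regions were higher, in 17 there were both, and Kdm4a alone had only a lower one. Hdac11 was the one gene with a region in another table and none here. Higher and lower regions numbered 14 and 4 in deacetylases, 28 and 3 in acetyltransferases, 33 and 7 in demethylases and 62 and 8 in methyltransferases. Of the regions in the authors' deposited table, 128 of the 137 higher and 21 of the 22 lower regions had an adjusted p under 0.01 (91.3% and 97.7% of all listed), and 4 higher ones stood at 0.05 or more.

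The higher regions rested to a large part on 1 library. Over the 137, the median value was 69.0, 32.9 and 18.4 normalised reads in the first-, second- and third-listed DCL library, against 17.5, 18.6 and 17.1 in control. In unscaled reads the medians were 22, 22 and 28 after DCL and 18, 30 and 32 in control. The first-listed DCL library was the highest of its group in 126 of the 137 regions and exceeded all controls in 137, the second-listed exceeded all controls in 125 and the third-listed in 53. Libraries were apart in 49 of the 137 (35.8%, against 46.5% of all higher regions). Without the first-listed DCL library 65 (47.4%, against 51.4%) kept a 1.5-fold difference, 8 changed sign, and the median log2 ratio fell to 0.53, against 1.12 with all libraries. The lower regions did not depend on it: all 22 had libraries apart (99.7% of all lower regions do), and all 22 kept the 1.5-fold difference without any 1 library. Their median was 4.71, 5.23 and 7.90 after DCL, against 23.4, 21.1 and 19.5 in control, but on 1.5, 3.5 and 12 reads in the DCL libraries.

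**Figure D3:**
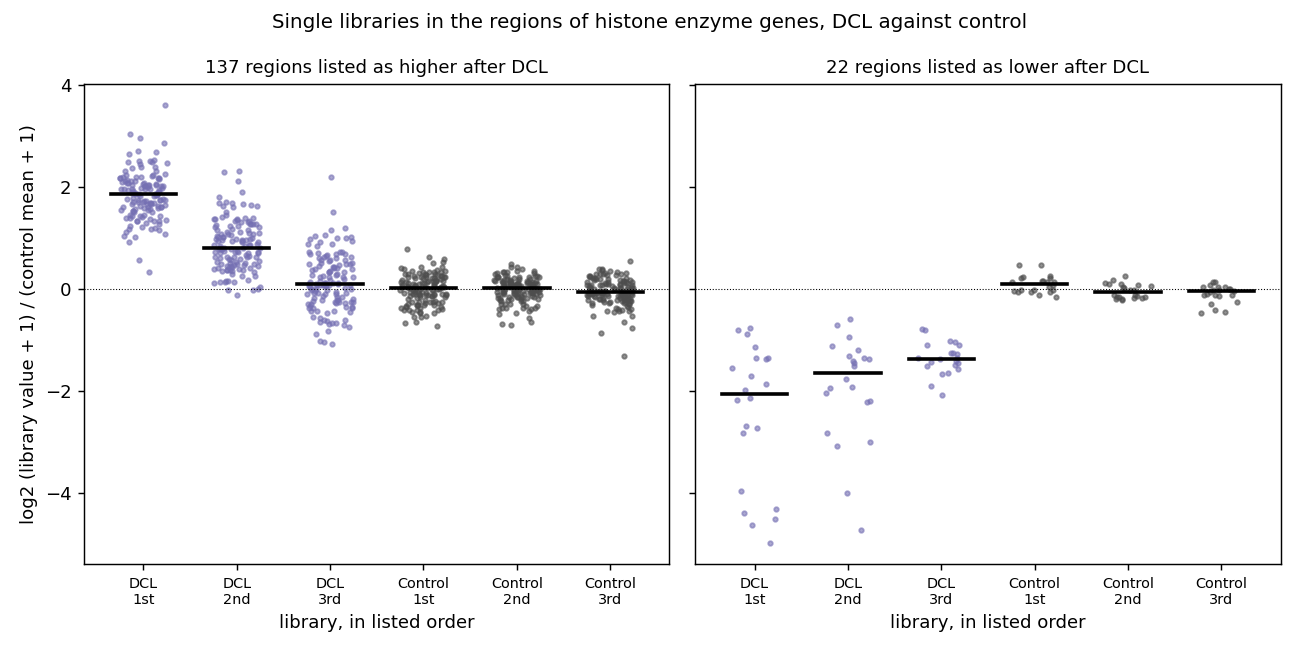
Value of each library against the control mean of the same region, as a log2 ratio with 1 added to both, in the regions of histone enzyme genes listed for DCL against control; points are regions and black lines medians. In the 137 higher regions the third-listed DCL library lies largely among the controls, while in the 22 lower regions all DCL libraries lie under 0.

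Genes differed in how many higher regions stood up without that library. Both of Hdac9, 4 of 5 in Kdm2b, 4 of 5 in Nsd1, 6 of 9 in Ehmt1, 4 of 6 in Kat2b and 9 of 17 in Prdm16 kept a 1.5-fold difference. None of 5 in Kdm2a, none of 4 in Kdm1a, 2 of 10 in Kat6b, 2 of 6 in Kat6a and 1 of 4 in Hdac1 did. Kdm2a and Kdm1a, a demethylase of histone H3 and the flavin-dependent demethylase LSD1, had no higher region with libraries apart. The same held for Nsd1, Ezh2, Kmt2a and Hdac2, with 5, 4, 2 and 1 higher regions.

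The region with the smallest deposited adjusted p lay in Ash1l, which carried 15.7, 23.9 and 29.6 normalised reads after DCL, against 5.85, 6.2 and 4.81 in control (chr3:88864881-88865160, gene body). Here the third-listed, most deeply counted DCL library was the highest, and the log2 ratio was 1.86 with all libraries and 2.07 without the first-listed. Kdm4c, an H3 demethylase, carried 22, 37.3 and 11.8 normalised reads after DCL, against 4.87, 6.82 and 8.55 in control (chr4:73919081-73919320, log2 ratio 1.67, 1.72 without the first-listed). Ezh1, a catalytic subunit of the Polycomb complex that methylates histones, carried 43.9, 38.8 and 17.1 normalised reads after DCL, against 7.8, 15.5 and 10.2 in control in its gene body (chr11:101083541-101083820, log2 ratio 1.5 and 1.25). In these 3 regions every DCL library was above every control, and the higher DCL mean did not rest on the first-listed library.

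In the others of the leading higher regions the first-listed library was the highest by far. Kmt2c carried 65.9, 25.4 and 12.5 normalised reads after DCL, against 6.82, 5.58 and 10.2 in control (chr5:24984501-24984720), with a log2 ratio of 2.06 that was 1.23 without it. Kdm5a, which removes the methyl mark of active promoters, carried 116, 26.9 and 17.8 normalised reads after DCL, against 16.6, 13 and 10.2 in control (chr6:120375861-120376180, log2 ratio 1.94 and 0.71). Ep300 carried 65.9, 17.9 and 13.2 normalised reads after DCL, against 7.8, 9.92 and 6.95 in control (chr15:81430761-81431040, log2 ratio 1.85 and 0.84). The 2 other DCL libraries lay above the controls in each of these, by less. Kdm5b carried 53.3, 20.9 and 17.1 normalised reads after DCL, against 10.7, 10.5 and 5.34 in control (chr1:136529701-136529940, at the end of the gene, log2 ratio 1.67 and 1.02). Ehmt1 carried 97.2, 35.8 and 28.9 normalised reads after DCL, against 23.4, 19.8 and 17.6 in control (chr2:24748881-24749200, log2 ratio 1.37 and 0.65). Prdm16 carried 107, 34.3 and 30.3 normalised reads after DCL, against 14.6, 23.6 and 27.2 in control in one of its 17 higher regions (chr4:153731961-153732300, log2 ratio 1.35 and 0.55). The third-listed DCL library exceeded the highest control by little in the last region.

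Prdm16 also held the lower region with the smallest deposited adjusted p, at 3.14, 10.4 and 11.2 normalised reads after DCL, against 27.3, 26 and 31 in control (chr4:153765921-153766140, log2 ratio −1.65). Its DCL values rest on 1, 7 and 17 reads and all lie under the controls. Further lower regions stood at 2.03 ± 2.35 after DCL and 20.01 ± 7.3 in control in Setd5, which encodes a SET domain protein, at 2.25 ± 2.71 after DCL and 18.8 ± 6.72 in control in Kat6a, the acetyltransferase MOZ, and at 2.81 ± 2.45 after DCL and 14.5 ± 2.9 in control in Kmt2e, a reader of active promoters with a SET domain. These had the largest falls of the 22, with log2 ratios of −2.79, −2.61 and −2.03. The DCL values rest on 0, 1 and 8 reads in Kat6a and on 0, 3 and 6 in Kmt2e. At DCL means this low, the 1 added to each mean bears on the size of the ratio. Kdm4c at 8.97 ± 0.43 after DCL and 26.1 ± 3.51 in control and Kdm4b at 5.78 ± 1.13 after DCL and 20.1 ± 2.15 in control had the smallest spread between DCL libraries among the lower demethylase regions. Kdm4a had its one region at 9.47 ± 5.54 after DCL and 26.5 ± 2.08 in control. Of the 12 leading regions, the authors' deposited table gives an adjusted p of 0.000206 for Ash1l and of 0.000267 for the 11 others, Prdm16 included.

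Promoters held 9 of the 159 regions, where 14.7% of all gene-linked regions are in promoters, and 7 of the 9 were higher. Closest to a start site was Kat2b, with a region centred at −191 bp that had 50.7 ± 29.7 after DCL and 31.5 ± 7.38 in control (chr17:53723101-53723420, log2 ratio 0.67 and 0.72 without the first-listed library), where the groups overlapped and the adjusted p in the authors' deposited table is 0.298. A second Kat2b promoter region further upstream, at chr17:53721381-53721720, had 72.1 ± 26.2 after DCL and 40.9 ± 6.32 in control with libraries apart and a log2 ratio of 0.80 that fell below 1.5-fold, to 0.49, without that library. The tables list Kat2b with 2 starts, and both regions are placed by the inner one, 17.2 kb inside the longer listing of the gene. Kat5, the acetyltransferase Tip60 of the NuA4 complex, carried 59.6, 35.8 and 24.4 normalised reads after DCL, against 14.6, 18.6 and 10.7 in control centred −616 bp from its start (chr19:5610541-5610880). Each DCL library was above each control, with a log2 ratio of 1.39 and 0.99 without the first-listed library. Ezh1 had 40.03 ± 31.1 after DCL and 15.4 ± 4.42 in control centred −493 bp from its start (chr11:101088121-101088420, log2 ratio 1.32 and 0.51 without the first-listed library), where groups overlapped. Dot1l, the methyltransferase of the histone core, had its only region in any table at 37.8 ± 16.3 after DCL and 17.7 ± 2.49 in control, centred −991 bp from the start (chr10:80216861-80217060), with libraries apart and a log2 ratio of 1.05 (0.65 without the first-listed).

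The table's promoter class also takes in stretches downstream of the start. In one of these Kmt2c carried 72.1, 31.4 and 23.7 normalised reads after DCL, against 14.6, 19.2 and 19.2 in control (chr5:25001661-25001880, log2 ratio 1.22 and 0.61). Hdac1, a class I deacetylase of the NuRD and Sin3 complexes, had 107 ± 71.3 after DCL and 39.3 ± 3.79 in control (chr4:129217741-129218320, log2 ratio 1.43 and 0.75). Libraries were apart in both. The 2 lower promoter regions were those of Ezh2, the main catalytic subunit of the Polycomb complex, at 5.84 ± 5.06 after DCL and 23.7 ± 3.94 in control (chr6:47542901-47543140, log2 ratio −1.86), and of Hdac7, by its inner start, at 9.31 ± 8.08 after DCL and 30.4 ± 3.2 in control (chr15:97663761-97664020, log2 ratio −1.61). Both stayed lower without the first-listed library, at −1.34 and −1.07.

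5-hmC arises at methylated cytosines, mostly in CpG pairs, so the start-site sequences of the 4 genes with a region within 1 kb of the start are shown with each CG in capitals. They run from 250 bases before the start to 50 after it, 5′ to 3′ on the gene's strand, from RefSeq on GRCm38.p6, a later build than the mm9 of the regions. For Kat2b the sequence is that of the inner start, taken as the RefSeq start with the same spacing from the outer one as in the tables.
Kat2b (chr17:53583876-53584175, plus strand): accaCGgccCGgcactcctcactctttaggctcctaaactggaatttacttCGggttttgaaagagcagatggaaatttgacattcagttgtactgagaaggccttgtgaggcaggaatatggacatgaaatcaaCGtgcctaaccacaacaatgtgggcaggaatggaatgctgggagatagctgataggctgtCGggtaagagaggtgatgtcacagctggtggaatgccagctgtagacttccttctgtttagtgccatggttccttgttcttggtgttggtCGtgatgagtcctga
Kat5 (chr19:5610045-5610344, minus strand): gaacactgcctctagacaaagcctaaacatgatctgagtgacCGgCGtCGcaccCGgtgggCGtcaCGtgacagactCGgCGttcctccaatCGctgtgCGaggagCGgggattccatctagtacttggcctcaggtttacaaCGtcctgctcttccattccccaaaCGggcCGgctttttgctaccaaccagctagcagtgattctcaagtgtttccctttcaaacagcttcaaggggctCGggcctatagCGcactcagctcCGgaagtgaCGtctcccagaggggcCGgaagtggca
Ezh1 (chr11:101226414-101226713, minus strand): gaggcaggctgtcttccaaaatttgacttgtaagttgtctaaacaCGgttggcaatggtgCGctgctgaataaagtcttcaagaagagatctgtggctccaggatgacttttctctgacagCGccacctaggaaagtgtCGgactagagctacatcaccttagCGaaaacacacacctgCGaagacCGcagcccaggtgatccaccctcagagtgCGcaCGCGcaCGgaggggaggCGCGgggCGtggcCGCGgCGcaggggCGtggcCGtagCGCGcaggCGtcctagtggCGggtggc
Dot1l (chr10:80754953-80755252, plus strand): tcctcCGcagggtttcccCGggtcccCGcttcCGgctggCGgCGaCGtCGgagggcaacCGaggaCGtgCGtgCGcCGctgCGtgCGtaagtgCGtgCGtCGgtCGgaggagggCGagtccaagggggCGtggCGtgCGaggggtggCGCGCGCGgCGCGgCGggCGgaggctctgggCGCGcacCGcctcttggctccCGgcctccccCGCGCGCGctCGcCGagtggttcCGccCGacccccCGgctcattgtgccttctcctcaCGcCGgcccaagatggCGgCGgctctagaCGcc
These 300 bases hold 6 CG in Kat2b, 19 in Kat5, 23 in Ezh1 and 49 in Dot1l, where the median of 32851 promoters of the same length is 7 and 94.6% hold at least 1 CG, a palindrome read alike on both strands. By the distances in the table, the Kat2b region falls partly within this stretch and the other 3 regions lie upstream of it. Kat2b has the fewest CG of the 4 and Dot1l the most, and nothing on the regions' change follows from the letters.

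Between the lesions, 29 of the 40 genes (72.5%) carried a region, against 30.7% of all protein-coding genes and 54.5% of those within the members' middle range of lengths. The PL mean was the higher one in 25 regions and the lower one in 69 (73.4%, against 75.1% of all listed regions). All regions were lower in 12 genes and higher in 4 (Crebbp, Ep300, Hdac11 and Kdm4a), and 13 genes had both. Higher and lower regions numbered 7 and 11 in deacetylases, 6 and 9 in acetyltransferases, 3 and 14 in demethylases and 9 and 35 in methyltransferases. Libraries were apart in 25 of 25 higher regions (98.5% of all higher regions) and in 31 of 69 lower ones (59% of all lower regions). This comparison uses the same DCL libraries as the one before: without the first-listed, 46 of the 69 lower regions (66.7%, against 70.4%) kept a 1.5-fold difference, 2 changed sign and the median log2 ratio was −0.72, against −1.35 with all libraries. All 25 higher regions kept it without any 1 library. An adjusted p under 0.01 stood in the authors' deposited table for 25 of 25 higher regions (95.2% of all higher regions) and for 59 of 69 lower ones (92.3% of all lower regions).

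Hdac9 showed the most even difference of the leading regions, with 2.48, 3.09 and 6.13 normalised reads after PL, against 14.1, 14.4 and 13.2 after DCL (chr12:34850541-34850780, log2 ratio −1.6, −1.59 without the first-listed DCL library). The scaled DCL values were close to each other and all PL values lay below them. In unscaled reads they rest on 4, 3 and 5 in the PL libraries and on 6, 13 and 27 in the DCL libraries. Of the 6 Hdac9 regions 5 were lower. Kat5 carried 6.82, 6.17 and 14.7 normalised reads after PL, against 44.5, 26.6 and 18 after DCL in its promoter (chr19:5610541-5610880, log2 ratio −1.58 and −1.19). The groups did not overlap there. Kdm2a carried 14.9, 12.3 and 8.59 normalised reads after PL, against 105, 25.5 and 15.6 after DCL (chr19:4352401-4352780, log2 ratio −1.95 and −0.74), and Kdm5b carried 8.06, 13.4 and 15.9 normalised reads after PL, against 56.2, 22.2 and 17.1 after DCL (chr1:136477241-136477480, log2 ratio −1.29 and −0.62). In both, the first-listed DCL library was the highest and the third-listed lay just above the PL libraries.

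Among methyltransferases Kmt2c carried 4.34, 1.03 and 2.45 normalised reads after PL, against 44.5, 11.1 and 8.29 after DCL (chr5:24966021-24966220, log2 ratio −2.63 and −1.57). Its PL values rest on 7, 1 and 2 reads. The Kmt2c promoter region carried 11.8, 10.3 and 13.5 normalised reads after PL, against 53.9, 26.6 and 20.5 after DCL (chr5:25001661-25001940, log2 ratio −1.43 and −0.93), and all 4 Kmt2c regions were lower. Ehmt1 carried 8.68, 6.17 and 7.36 normalised reads after PL, against 53.9, 22.2 and 17.1 after DCL at chr2:24710501-24710880 (log2 ratio −1.93 and −1.29). Further along the gene it carried 4.96, 1.03 and 2.45 normalised reads after PL, against 23.4, 18.8 and 9.27 after DCL (chr2:24672501-24672700, log2 ratio −2.25 and −1.98). All 4 Ehmt1 regions were lower, and these 2 had no overlap of the groups with or without the first-listed library. Setd2 carried 19.2, 19.5 and 18.4 normalised reads after PL, against 98.3, 43.2 and 24.4 after DCL (chr9:110485081-110485480, log2 ratio −1.49 and −0.80), with nearly equal PL libraries. Ezh1 carried 6.82, 4.11 and 9.81 normalised reads after PL, against 32.8, 27.7 and 11.7 after DCL in its gene body (chr11:101083601-101083820, log2 ratio −1.66 and −1.39), again with every PL library lower.

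Prdm16 differed in both directions. One region near the end of the gene carried 18, 15.4 and 13.5 normalised reads after PL, against 0, 0 and 6.34 after DCL (chr4:153719981-153720220). With 0, 0 and 13 reads in the DCL libraries and 29, 15 and 11 in the PL libraries, its log2 ratio was 2.42 and 2.0 without the first-listed DCL library. Nearer the start, a region carried 1.86, 3.09 and 7.36 normalised reads after PL, against 28.1, 12.2 and 10.2 after DCL (chr4:153958921-153959140, log2 ratio −1.81 and −1.26). Of the 10 Prdm16 regions 8 were lower. The authors' deposited table gives adjusted p-values between 0.00026 (Kmt2c) and 0.00124 (Ezh1) for these 12 regions, with 0.00116 for Hdac9, 0.000923 for the Kat5 promoter and 0.000349 for the higher Prdm16 region.

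**Figure D4:**
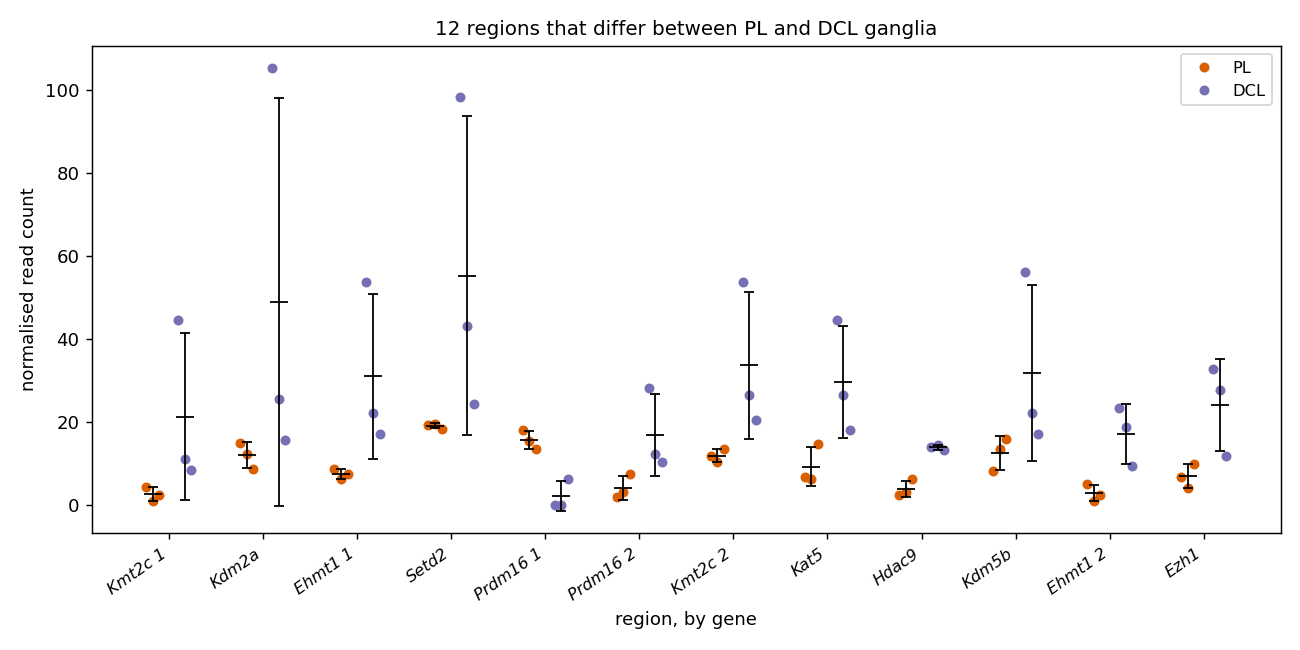
Normalised read count in each library (points, in listed order from left to right), with mean and SD (bars), for the 12 regions with libraries apart and the smallest deposited adjusted p between the lesions, PL left of DCL; a number tells regions of one gene apart. In 10 of the 11 lower regions the left-most, first-listed DCL point is the highest, the exception being Hdac9.

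Gene body regions that were higher after PL than after DCL lay further along their genes, at a median of 66.6% of the gene's length from the start, than the lower ones, at 29.4%. Over all listed regions the medians were 53.6% and 47.5%. The members' medians between the lesions come from 25 and 64 regions that share genes and libraries, and no test of the difference was made. The other comparisons did not show it. For PL against control the members' medians were 36.7% in higher and 48.6% in lower regions. For DCL against control they were 46.2% and 45.9%.

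**Figure D5:**
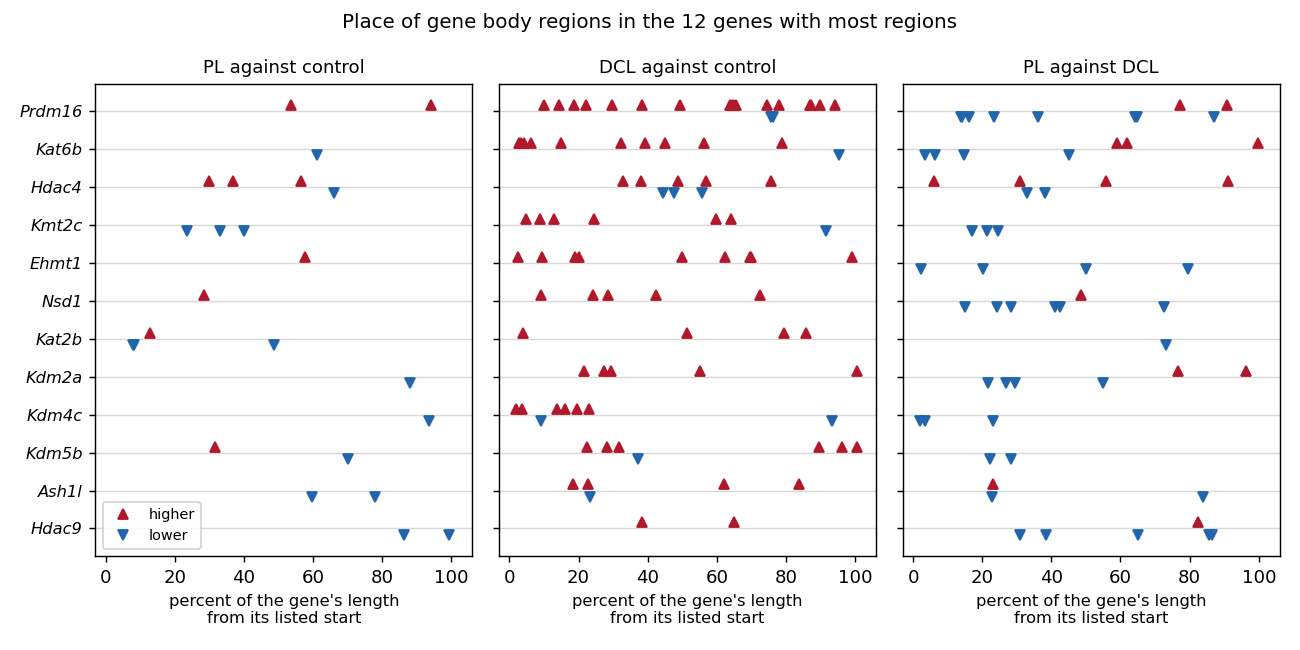
Place of each gene body region of the 12 genes with most regions, as percent of the gene's length from its listed start, with higher regions as red upward and lower ones as blue downward triangles; regions past the listed gene end are drawn at its edge. In PL against DCL the lower regions of Kat6b, Kmt2c, Kdm4c and Kdm5b lie before the middle of the gene, while the higher ones of Prdm16, Kat6b and Kdm2a lie beyond the middle; higher regions also lie before it in Hdac4, Nsd1 and Ash1l, and lower ones beyond it in Prdm16, Ehmt1, Nsd1, Kat2b, Kdm2a, Ash1l and Hdac9.

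Some stretches were listed in more than 1 table. The tables share libraries, so a like direction in both is no independent result, and the values are given side by side. With PL and with DCL against the same controls, 6 stretches were listed (15.4% of the 39 regions after PL and 3.77% of the 159 after DCL). Prdm16 near its end had 71.2 ± 16.2 after PL and 39.4 ± 5.82 in control in the PL comparison, and 81.6 ± 23.1 after DCL and 43.7 ± 1.93 in control in the DCL comparison, with libraries apart in both and a log2 ratio of 0.80 without the first-listed DCL library. Kdm5b had 38.1 ± 14.8 after PL and 16.1 ± 4.86 in control, and in the DCL comparison 45 ± 34.4 after DCL and 19.3 ± 4.25 in control. Kmt2e had 24.8 ± 7.75 after PL and 10.1 ± 3.1 in control, and in the DCL comparison 22.9 ± 15.5 after DCL and 10.1 ± 2.34 in control. In these 2 genes the DCL log2 ratios of 1.18 and 1.10 were 0.37 and 0.43 without the first-listed library. Kdm4b had 27.6 ± 12.9 after PL and 11.5 ± 1.99 in control, and in the DCL comparison 38.1 ± 33.4 after DCL and 17.9 ± 2.54 in control, with a log2 ratio of 0.11 without that library. Nsd1, a methyltransferase mutated in Sotos syndrome, had 33.5 ± 13.5 after PL and 18.1 ± 3.47 in control, and in the DCL comparison 73.2 ± 58.3 after DCL and 23.4 ± 4.35 in control, with groups overlapping in both and DCL log2 ratios of 1.61 and 0.83 without the first-listed library. Kdm4c was the one stretch lower in both, at 8.86 ± 6.14 after PL and 23.4 ± 3.3 in control, and in the DCL comparison at 7.96 ± 7.35 after DCL and 25.6 ± 3.73 in control. The Nsd1 stretch was also listed between the lesions, at 26.1 ± 10.9 after PL and 54.5 ± 43.6 after DCL. Its adjusted p in the authors' deposited table was 0.0547 for PL against control and 0.135 for PL against DCL. Hdac9 at chr12:34850521-34850800 was the one stretch lower after PL against both control and DCL.

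Between DCL against control and PL against DCL, 54 regions of 24 genes overlapped (34.0% of the 159 and 57.4% of the 94). Here too the share over all listed regions was not computed, and the shares cannot be called particular to these genes. In 49 the DCL mean was the higher one in both tables and in 5 the lower one, and libraries were apart in both tables in 14. As both use the same DCL libraries, the shared direction is no separate result.

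For the regions with a higher DCL mean, log2 ratios are given here or above with all libraries, then without the first-listed DCL library. They stand in the order of the values. The 5 with a lower DCL mean kept a 1.5-fold difference in both tables without that library. Of the deacetylases, Hdac9 had 2 such regions, at 22.8 ± 5.17 and 31.2 ± 12.1 after DCL against 10.2 ± 2.5 and 12.3 ± 2.85 in control, and in the direct comparison 5.34 ± 2.54 and 5.27 ± 1.04 after PL against 15.3 ± 3.28 and 20.2 ± 11.5 after DCL. Libraries were apart for both regions in both tables. The Hdac9 log2 ratios were 1.09 and 1.27 with all libraries and 0.92 and 0.95 without the first-listed DCL one against control, and −1.37 and −1.76 with all and −1.21 and −1.26 without it between the lesions. Hdac4 had 2 with a higher DCL mean, at 60.5 ± 46.6 and 32.4 ± 18.7 after DCL against 25.4 ± 10.1 and 12.4 ± 2.64 in control, and in the direct comparison 18.2 ± 3.28 and 8.23 ± 0.961 after PL against 47.8 ± 35.2 and 24.1 ± 14 after DCL. Their log2 ratios were 1.22 and 1.32 with all libraries and 0.42 and 0.78 without the first-listed DCL one against control, and −1.35 and −1.45 with all and −0.62 and −0.91 without it between the lesions, and the groups of the first overlapped in both tables. Another Hdac4 region was lower after DCL, at 5.84 ± 5.06 after DCL against 21.9 ± 2.69 in control, and in the direct comparison 43.5 ± 4.17 after PL against 17.8 ± 7.35 after DCL, with libraries apart in both. Hdac1 had 3, at 59.5 ± 78.8, 93 ± 49 and 107 ± 71.3 after DCL against 11.5 ± 7.87, 47.2 ± 3.18 and 39.3 ± 3.79 in control, and in the direct comparison 10.5 ± 1.67, 33 ± 8.18 and 24.1 ± 17.4 after PL against 44.4 ± 58.9, 66.5 ± 37.8 and 61.5 ± 43.3 after DCL. Against control libraries were apart only in the last of them, the promoter region, and between the lesions groups overlapped in each. The promoter region's adjusted p between the lesions was 0.686 in the authors' deposited table. The Hdac1 log2 ratios were 2.28, 0.96 and 1.43 with all libraries and 0.27, 0.51 and 0.75 without the first-listed DCL one against control, and −1.98, −0.99 and −1.31 with all and 0.00903, −0.50 and −0.60 without it between the lesions, so the first, near the gene's end, was close to 0 between the lesions without that library.

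Of the acetyltransferases, Kat5 was given above, and Kat2b had its upstream promoter region in the direct comparison at 24.8 ± 9.43 after PL against 58.9 ± 23.5 after DCL, with libraries apart and log2 ratios of −1.21 and −0.87. Kat6a had 2 with a higher DCL mean, at 282 ± 209 and 136 ± 72.6 after DCL against 143 ± 7.03 and 71.9 ± 14 in control, and in the direct comparison 117 ± 8.34 and 43.7 ± 7.93 after PL against 209 ± 158 and 78.8 ± 46.4 after DCL. The first had the highest mean of normalised reads among the regions of the 40 genes. These are reads over a whole region, and it was 740 bases long, where the members' median higher region after DCL was 280. The Kat6a log2 ratios were 0.97 and 0.91 with all libraries and 0.17 and 0.48 without the first-listed DCL one against control, and −0.83 and −0.84 with all and −0.00423 and −0.33 without it between the lesions, and without it neither kept a 1.5-fold difference in either table. The lower Kat6a region named above had 22.3 ± 3.81 after PL against 10.1 ± 4.29 after DCL in the direct comparison. Kat6b, the acetyltransferase MORF, had 4, at 68 ± 38.2, 47 ± 27.2, 29.8 ± 25.8 and 53.4 ± 27.6 after DCL against 38.6 ± 5.19, 25.3 ± 2.32, 13.6 ± 0.718 and 32.9 ± 3.14 in control, and in the direct comparison 21.9 ± 1.92, 13.6 ± 4.14, 7.33 ± 0.122 and 9.73 ± 1.41 after PL against 49.6 ± 29.1, 37.3 ± 20.3, 22.2 ± 19.3 and 25.8 ± 26.3 after DCL. None of the 4 had libraries apart against control. The Kat6b log2 ratios were 0.80, 0.87, 1.08 and 0.68 with all libraries and 0.33, 0.37, 0.13 and 0.19 without the first-listed DCL one against control, and −1.15, −1.39, −1.48 and −1.32 with all and −0.64, −0.92, −0.54 and −0.12 without it between the lesions.

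Among demethylases, Kdm2a had 3, at 62.9 ± 62.6, 49.5 ± 46.8 and 58.2 ± 49 after DCL against 24.8 ± 2.76, 22.7 ± 5.2 and 38.8 ± 4.51 in control, and in the direct comparison 11.9 ± 3.16, 15 ± 3.19 and 17.5 ± 2.1 after PL against 48.8 ± 49.2, 36.9 ± 35 and 43.4 ± 36.6 after DCL. The Kdm2a log2 ratios were 1.31, 1.09 and 0.57 with all libraries and 0.11, −0.00936 and −0.32 without the first-listed DCL one against control, and −1.95, −1.24 and −1.26 with all and −0.74, −0.15 and −0.37 without it between the lesions, so the last 2 changed sign against control. Kdm4c had 3, at 59.7 ± 44.9, 37.2 ± 22.9 and 39.1 ± 22 after DCL against 27.3 ± 1.92, 11.7 ± 6.11 and 16.6 ± 1.02 in control, and in the direct comparison 13.7 ± 3.54, 12.9 ± 4.82 and 10.3 ± 3.8 after PL against 44.1 ± 34.1, 31.6 ± 13 and 26.3 ± 16.8 after DCL, with groups overlapping in each. The Kdm4c log2 ratios were 1.10, 1.59 and 1.18 with all libraries and 0.39, 1.17 and 0.76 without the first-listed DCL one against control, and −1.62, −1.22 and −1.27 with all and −0.89, −0.97 and −0.69 without it between the lesions, and against control the first of them lost its 1.5-fold difference. Kdm5b had 2, at 55.6 ± 44.6 and 57.5 ± 40.04 after DCL against 21.4 ± 4.83 and 32.1 ± 4.44 in control, and in the direct comparison 9.67 ± 4.13 and 12.5 ± 4.02 after PL against 41 ± 33.3 and 31.8 ± 21.3 after DCL, with groups overlapping against control. Their log2 ratios were 1.34 and 0.82 with all libraries and 0.61 and 0.10 without the first-listed DCL one against control, and −1.98 and −1.29 with all and −1.23 and −0.62 without it between the lesions, so the second was near 0 against control without that library. Kdm5a had 10.3 ± 8.07 after PL against 37.9 ± 40.3 after DCL in the direct comparison at the region named above, where the groups overlapped and the log2 ratio of −1.78 was −0.47 without the first-listed DCL library. Kdm6b, which removes the Polycomb mark, had one region in both tables, at 23 ± 12.7 after DCL against 8.67 ± 3.35 in control, and in the direct comparison 7.05 ± 2.36 after PL against 20.03 ± 11.1 after DCL, with libraries apart in both. Its log2 ratios were 1.31 and 0.79 against control and −1.38 and −0.86 between the lesions. Kdm4a was lower after DCL, as given above, and had 19.8 ± 3.41 after PL against 6.5 ± 3.61 after DCL in the direct comparison.

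Of the methyltransferases, Prdm16 and Nsd1 had 4 each. Those of Prdm16 stood at 57.1 ± 43, 49.2 ± 31.1, 58.9 ± 41.2 and 42.1 ± 32.3 after DCL against 21.8 ± 6.49, 25.8 ± 5.04, 18.9 ± 6.58 and 14.9 ± 1.6 in control, and in the direct comparison 14.8 ± 9.23, 8.92 ± 4.54, 16.8 ± 1.05 and 12.8 ± 2.73 after PL against 42.5 ± 32.2, 30.3 ± 21.2, 44.4 ± 30.5 and 30.4 ± 24.9 after DCL. Against control only the first of them had libraries apart. The Prdm16 log2 ratios were 1.35, 0.90, 1.59 and 1.44 with all libraries and 0.55, 0.27, 0.92 and 0.65 without the first-listed DCL one against control, and −1.46, −1.66, −1.35 and −1.18 with all and −0.66, −0.98, −0.70 and −0.32 without it between the lesions. Those of Nsd1 stood at 60.3 ± 48.6, 73.2 ± 58.3, 75.8 ± 63.3 and 32.6 ± 26.9 after DCL against 17.1 ± 5.76, 23.4 ± 4.35, 33.2 ± 4.27 and 11.2 ± 2.09 in control, and in the direct comparison 11.9 ± 10.4, 26.1 ± 10.9, 23.7 ± 5.49 and 8.42 ± 4.0 after PL against 44.9 ± 36.3, 54.5 ± 43.6, 56.4 ± 47.3 and 24.3 ± 20.1 after DCL. None of the Nsd1 regions had libraries apart in either table, and 3 of the 4 kept a 1.5-fold difference against control without the first-listed DCL library. Their log2 ratios were 1.76, 1.61, 1.17 and 1.46 with all libraries and 0.95, 0.83, 0.26 and 0.60 without the first-listed DCL one against control, and −1.83, −1.04, −1.22 and −1.42 with all and −1.02, −0.26, −0.31 and −0.57 without it between the lesions. Ehmt1 had 3, at 41.7 ± 26.6, 54 ± 37.6 and 41.1 ± 31.3 after DCL against 15.2 ± 7.54, 20.3 ± 2.91 and 21.7 ± 3.37 in control, and in the direct comparison 7.4 ± 1.26, 15.5 ± 4.44 and 14.1 ± 2.7 after PL against 31 ± 19.9, 38.4 ± 29.6 and 34.6 ± 20.05 after DCL. The Ehmt1 log2 ratios were 1.40, 1.37 and 0.89 with all libraries and 0.76, 0.65 and 0.14 without the first-listed DCL one against control, and −1.93, −1.26 and −1.24 with all and −1.29, −0.44 and −0.72 without it between the lesions, and the last lost its 1.5-fold difference against control.

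Ash1l held 2 neighbouring regions of opposite direction. At chr3:88795481-88795840 it had 67.2 ± 63.4 after DCL and 23.8 ± 5.7 in control, and in the direct comparison 20.9 ± 9.68 after PL and 50.1 ± 47.4 after DCL. Just beyond, at chr3:88795901-88796220, it had 8.25 ± 3.69 after DCL and 27.7 ± 3.23 in control, and in the direct comparison 18 ± 4.01 after PL and 5.27 ± 2.3 after DCL. Libraries were apart in the second of them in both tables and in the first in neither. The first had log2 ratios of 1.46 and 0.41 against control and −1.22 and −0.17 between the lesions. The leading Ash1l region had 4.46 ± 5.05 after PL and 17.1 ± 5.14 after DCL in the direct comparison, with log2 ratios of −1.73 and −1.93.

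Setd2 had 2 regions in both tables, at 59.8 ± 29.2 and 74.3 ± 51.3 after DCL against 26 ± 2.21 and 38.3 ± 0.637 in control, and in the direct comparison 23 ± 2.08 and 19.1 ± 0.587 after PL against 44.5 ± 21.9 and 55.3 ± 38.4 after DCL, and neither had libraries apart against control. The Setd2 log2 ratios were 1.17 and 0.94 with all libraries and 0.84 and 0.25 without the first-listed DCL one against control, and −0.92 and −1.49 with all and −0.59 and −0.80 without it between the lesions, so the second lost its 1.5-fold difference against control. Ezh2 had 2, at 53.5 ± 42.2 and 89.2 ± 79.1 after DCL against 16.9 ± 2.93 and 45.1 ± 0.951 in control, and in the direct comparison 14.8 ± 3.26 and 21.7 ± 8.25 after PL against 38.4 ± 32.5 and 54.1 ± 51.3 after DCL, with groups overlapping in each. The Ezh2 log2 ratios were 1.6 and 0.97 with all libraries and 0.79 and −0.02 without the first-listed DCL one against control, and −1.32 and −1.28 with all and −0.42 and −0.20 without it between the lesions, and the second changed sign against control. The Ezh1 promoter region had 12.7 ± 1.32 after PL and 28.8 ± 24.2 after DCL in the direct comparison, with log2 ratios of −1.12 and −0.24. Kmt2c had a further one at 53.5 ± 38.6 after DCL and 26.9 ± 4.69 in control, and in the direct comparison 17 ± 5.19 after PL and 37.8 ± 28.7 after DCL. Its log2 ratios were 0.97 and 0.23 against control and −1.11 and −0.33 between the lesions. Kmt2a, the methyltransferase MLL1 of active promoters, had one at 33.5 ± 30.8 after DCL against 15 ± 3.24 in control, and in the direct comparison 9.04 ± 3.75 after PL against 24.9 ± 23 after DCL, with log2 ratios of 1.11 and 0.06 against control and −1.37 and −0.33 between the lesions. Setd5 had one at 44.4 ± 40.4 after DCL against 17.5 ± 5.07 in control, and in the direct comparison 12.9 ± 2.14 after PL against 33.1 ± 30.2 after DCL, with log2 ratios of 1.30 and 0.26 against control and −1.30 and −0.27 between the lesions. Kmt2e had one higher after DCL, at 36.3 ± 28.3 after DCL against 14.3 ± 4.85 in control, and in the direct comparison 8.35 ± 2.95 after PL against 22.4 ± 21.2 after DCL, with log2 ratios of 1.29 and 0.45 against control and −1.32 and −0.26 between the lesions. In these 4 regions the groups overlapped in both tables, and without the first-listed DCL library none kept a 1.5-fold difference. The lower Kmt2e region named above had 21.7 ± 2.85 after PL against 8.96 ± 4.96 after DCL in the direct comparison, with libraries apart in both tables.

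Of 100 other genes for histone enzymes and their complex partners, regions lay in 25 for PL against control, in 57 for DCL against control and in 46 for PL against DCL (25%, 57% and 46%, where 20.2%, 38.3% and 30.7% of all protein-coding genes carry one). No share among genes of like length was computed for these 100 genes. After PL, Kdm6a, the X-linked relative of Kdm6b, had 3 lower regions, the first at 1.89 ± 1.05 after PL and 14.8 ± 0.977 in control. After DCL, Eed, a core partner of Ezh1 and Ezh2, had a lower region at 1.65 ± 1.52 after DCL and 12.8 ± 1.40 in control. Its DCL mean is near the value of 1 read, which was 3.14, 1.49 and 0.658 in these libraries. Most complex partners went the other way: of 32, 11 had only higher regions after DCL, 1 only lower ones and 7 both. None of 9 arginine methyltransferases carried a region between the lesions, against 1 after PL and 3 after DCL. The tables list differential regions only, so the labelled tissue could not be checked by the presence of its markers. Of 36 marker genes of the ganglion's cell types 9, 16 and 10 (25%, 44.4% and 27.8%) carried a region in the 3 tables, near the 20.2%, 38.3% and 30.7% of all protein-coding genes: 4, 5 and 3 of 10 sensory neuron markers, 3, 6 and 4 of 10 of satellite glia and Schwann cells, 0, 2 and 1 of 8 of immune cells, and 2, 3 and 2 of 8 of vessels and fibroblasts. A shift in cell make-up and its part in these results was not tested.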

How the data were processed

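DNA was enriched for 5-hmC by adding a sugar and biotin to the mark and capturing the fragments on streptavidin, per the labels' protocols. The mm9 build, MACS2 2.1.1, SAMtools 0.1.19 and Bowtie2 2.2.0 stand, without their roles, in the submitters' processing notes. The sources used here do not name the program that called the regions or its filters. Per the file headers and values, the authors deposited, for each region, 3 normalised read counts a group joined in one cell (not raw counts), their average signal, an enrichment ratio, a log2 fold change, and p-values with adjusted p-values. The value of 1 read was searched for as a step of which all low values are whole multiples, within 0.1 of a read. Such a step was found in every library. The whole multiples are the condition of that search and no separate check of it. Regions listed identically in 2 tables had the same reads at each cell position, so cells list libraries in one order, which the tables do not tie to a numbered sample.

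Means and SDs over 3 libraries, log2 ratios with a pseudocount of 1, exact permutation tests, and leave-one-out values were computed with python 3.11.15, numpy 2.4.6, pandas 2.3.3 and scipy 1.17.1. The value of 1 read, the direction and the 1.5-fold rule were checked on simulated data, and the permutation test on 1 made-up example. Means, SDs, log2 ratios and leave-one-out values were not checked in this way. Figures used matplotlib 3.10.9. No count model was fitted, because the tables hold only regions already selected on these values. Spread is that between pools of 3 animals. The members, gene lists and tests were chosen with earlier results of these data known. Named regions are, for each comparison, the 12 with libraries apart and the smallest deposited adjusted p, every promoter region, and every region that overlaps a member region of another table by at least 1 bp. Regions shown as further examples (lower regions after DCL, Kdm4b and Kmt2c after PL, Kdm6a, Eed) were chosen after their values were seen. Start-site sequences came from RefSeq tables of GRCm38.p6. So did the gene lengths behind Spearman's rho, the median member's length rank and the middle range of lengths. Densities used the longest span that the deposited tables list for a gene.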

Additional observations from a re-analysis of the deposited data

How the results depend on the processing

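The tables list only regions that the authors selected, with no totals, so depth can be judged only from the value of 1 read, and means near it rest on few reads. Counts within 1.5 times of the listed ones were obtained at a deposited adjusted p under 0.05, at a 1.5-fold minimum, with a mean of at least 10 in the higher group and in gene bodies alone. At a deposited adjusted p under 0.01, 10 of the 24 lower regions after PL remained. With libraries apart, 49 of 137 higher regions after DCL and 31 of 69 lower ones of PL against DCL remained. Leaving out 1 library gave 65 to 137 higher regions after DCL and 46 to 69 lower ones of PL against DCL, the lowest without the first-listed DCL library, and 31 to 33 genes with a region after DCL. The counts of higher and lower regions after PL (15 and 24), of lower regions after DCL (22) and of higher regions of PL against DCL (25), and of genes with a region after PL (20) and between the lesions (29), were the same without any 1 library. Among pseudocounts of 0.5 and 5, medians and each library left out, the log2 ratios of named regions changed sign only without the first-listed DCL library, in 4 cases. For DCL against control they ranged, over the libraries left out, from −0.00936 to 1.46 and from −0.32 to 0.991 in 2 Kdm2a regions (chr19:4373061-4373420 and chr19:4379381-4379740) and from −0.0231 to 1.38 in Ezh2 (chr6:47529361-47529780). For PL against DCL they ranged from −2.45 to 0.00903 in Hdac1 (chr4:129195601-129195840). Overlaps of 50% of both regions left 53 of the 54 shared by the 2 tables with DCL. No paired analysis was possible because the library values in a cell carry no replicate numbers.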
